A study of Caenorhabditis elegans with 3 samples.

Results

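The transcriptome of untreated Caenorhabditis elegans larvae was described from 1 Affymetrix array, the control array of a series of 3. The other arrays, of electrosprayed and of heat-shocked larvae, were not compared with it. The larvae were whole animals of the wild-type Bristol strain N2, which carries no transgene, and the labels place them at the first larval stage (L1). Their parents were kept at 20 °C on plates with Escherichia coli OP50, the culture was synchronised by bleaching, and 200 ng of total RNA was amplified and labelled with biotin. The age at collection, the time on food and the number of animals pooled were not given in the sources used here. The array reported 22625 probe sets (groups of probes against a transcript) as log2 levels, and 20766 of them named 1 gene. The brightest of these stood for its gene, which gave 17118 genes to rank. With 1 array there is no replicate error and no test, and the number of arrays limits the precision.

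A worm larva hatches with most of its body muscle, nerve cells, pharynx and intestine in place and with only a pair of germ cell precursors. It then grows through larval stages that each end in a moult, in which the epidermis secretes a new collagen cuticle under the old one. Growth after hatching needs food, and a larva that hatches without food arrests. RNA of a whole animal therefore mixes transcripts of general growth, of the moulting cycle, of each tissue and of a germline whose size depends on age.

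Levels of genes ran from a dense group of dim genes to a long bright tail. The whole array spanned log2 levels of 1.86 to 13.96, and the median gene stood at 3.13, with quartiles of 2.52 and 5.17. The array carries 27 probe sets against transcripts of the bacterium Bacillus, and these lay between 2.25 and 2.97, which marks where a probe set with no matching worm transcript falls. In all 7967 genes (46.5%) were at or below the highest of them. A gene was called near the floor when its log2 level was under 4, which held for 10555 of 17118 genes (61.7%). The nearest genes on each side of that limit stood at 3.9995 and 4.001. The top decile, the brightest 10% of genes, comprised 1712 genes from a level of 6.895 upwards, and the next gene below stood at 6.894. At a level of 10 or above were 234 genes (1.37%), and 4851 genes (28.3%) lay between floor and top decile.

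**Figure D1:**
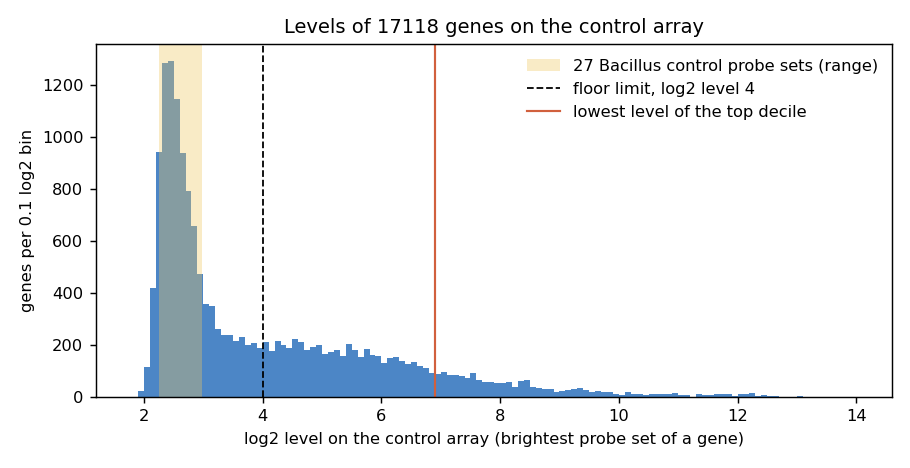
Histogram of the log2 level of 17118 genes on the control array (x axis, brightest probe set of each gene) in bins of 0.1 (y axis, number of genes). The band is the range of the 27 Bacillus control probe sets, 2.25 to 2.97, the dashed line is the floor limit of 4 and the solid line the lower edge of the top decile, and the peak of dim genes lies within the band.

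A level combines the amount of a transcript with how well its probes bind, so ranks are approximate. Of the 703 top-decile genes with a second probe set, the brightest and dimmest differed by a median of 1.61 on the log2 scale (quartiles 0.77 and 2.86), the dimmest was also at a top-decile level in 284 (40.4%), and it was near the floor in 15.9%. The 30 brightest genes together spanned 1.39, less than that median, so their order is not resolved. Among genes near the floor 9704 (91.9%) had a single probe set. The 18 spike-in probe sets, for RNAs added in steps of amount, stood in the order of those steps, with medians of 5.35 for bioB, 6.55 for bioC, 9.39 for bioD and 11.76 for cre. Control probe sets at the 3′ end of a transcript were brighter than those at the 5′ end, by 0.80 for actin, 0.85 for Gapdh, 3.25 for catalase and 4.62 for ubiquitin. A gene near the floor is therefore not shown to be silent.

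Ribosomal protein and collagen genes filled the top of the list. Among the 30 brightest genes 17 encode cytosolic ribosomal proteins, the structural parts of the ribosome, and 11 encode cuticle collagens. The brightest single-gene probe set was that of the collagen col-125 at 13.64. It was followed by col-93 at 13.40 and by dpy-13 and sqt-3, collagens named for the dumpy and squat bodies of their mutants, at 13.05 and 13.04. The first ribosomal protein gene was rpl-21 at 12.81, ahead of col-157 at 12.76, rpl-8 at 12.66, rps-25 at 12.62 and rpl-31 at 12.59. Collagens col-160, col-73 and dpy-4 stood at 12.55, 12.54 and 12.48. The remaining collagens of the 30 were col-43 (12.31), col-17 (12.29) and col-146 (12.285). The 2 genes outside both groups were F41F3.3 at 12.49 and ram-2, named for abnormal rays of the male tail, at 12.34.

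The second probe sets of these genes were not all bright. A second probe set existed for 15 of the 30 genes, and in 3 of them it was near the floor: 2.34 for col-157, 2.38 for rpl-8 and 3.67 for rpl-12. For col-93 the second stood at 13.21. In 26 of the 30 the brightest probe set has a name that marks it as able to read related transcripts, so a collagen's level can include that of near-identical relatives. The brightest probe set of all, at 13.96, reads col-3 and col-117 together, and further probe sets shared by collagens stood at 13.52 (col-92 with col-94) and 13.13 (col-10 with col-144). Of the 887 probe sets that name several genes, 26 were at 10 or above and 14 of these name col genes.

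**Figure D2:**
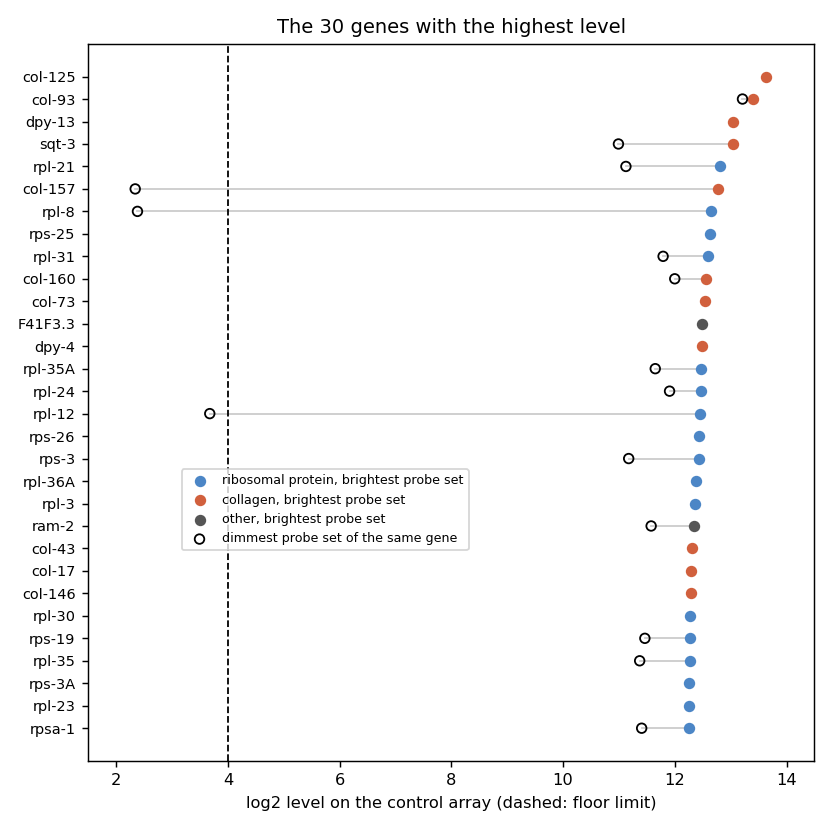
The 30 genes with the highest log2 level on the control array. Filled points are the brightest probe set (blue for ribosomal protein, orange for collagen, grey for other genes), open points the dimmest probe set of the 15 genes with more than 1, and 3 open points (col-157, rpl-8 and rpl-12) lie left of the dashed floor limit.

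Over all 234 genes at 10 or above, 80 (34.2%) encode cytosolic ribosomal proteins and 25 (10.7%) collagens, followed by 13 muscle, 12 respiratory chain and 10 translation factor genes, and 75 (32.1%) belong to none of the groups counted. Cytosolic ribosomal protein genes were bright with 1 exception. Of 81 cytosolic ribosomal protein genes 80 were in the top decile, with a median of 11.90, and all 80 were at 10 or above. The exception was rpl-42, whose 1 probe set stood at 2.31, while the next lowest, rpl-41.1, stood at 10.33. The translation factor list, which also holds ubiquitin, cap-binding and scaffold protein genes, had 18 of 21 measured members in the top decile and a median of 10.18. The elongation factor gene eef-1A.1 stood at 12.16, ubq-2, which encodes a ubiquitin fused to a ribosomal protein, at 11.73, rack-1, a ribosome-bound scaffold, at 11.51, and eef-2 at 11.36. The 5 cap-binding protein genes of the list differed, with ife-1 at 8.16 and ife-3 at 6.897, both in the top decile, ife-2 at 6.48, and ife-4 (4.86) and ife-5 (3.72) the lowest of the list; the first 3 were added after their values were seen. Ribosomal proteins of mitochondria were dimmer, with 18 of 59 in the top decile, 2 near the floor and a median of 6.55, led by mrpl-44 (8.25) and mrps-5 (8.21).

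Most genes of energy metabolism were in the top decile. Of 35 genes of the respiratory chain and ATP synthase 34 were in the top decile (median 9.32), led by the ATP synthase gene atp-2 at 11.52, the cytochrome c gene cyc-2.1 at 11.15, and the adenine nucleotide carrier gene ant-1.1 and the oxidase subunit gene cox-6B, both at 11.03. The 1 outside was ucr-2.3 at 5.42. Of 8 measured genes of the mitochondrial genome 7 were in the top decile, among them ND4 at 10.79 and COX3 at 10.69, and ND5 stood at 3.96. These mitochondrial genes and the non-coding genes named next were chosen after their values were seen. Citrate cycle genes had 15 of 18 in the top decile (median 8.15; cts-1, citrate synthase, at 10.28) and none near the floor. Glycolysis genes had 11 of 16 (median 7.77), with the glyceraldehyde phosphate dehydrogenase genes gpd-2 and gpd-3 at 10.63 and 10.23 and pfk-1.2 at 2.36. Vacuolar proton pump genes had 15 of 18 (median 8.89; vha-10 at 9.74) and proteasome genes 26 of 33 (median 7.66; rpt-3 at 9.23).

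Few pseudogenes were bright. The annotation gives 877 of the genes as pseudogenes, of which 843 (96.1%) were near the floor and 10 in the top decile, the brightest T18H9.11 at 10.17. In the top decile were 1 of 8 long non-coding RNA genes (12.5%) and 2 of 25 genes annotated as other non-coding RNA (8%), near the 10% of all genes. The long non-coding RNA lep-5 stood at 10.59, rank 176 of all genes. An array probe set for ribosomal RNA, rrn-3.1, stood at 12.04, with its other probe sets down to 7.95. The non-coding RNA genes W06H8.5 and tts-2 stood at 8.58 and 8.31.

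Most chaperone genes of unstressed cells were in the top decile, and the readings for heat-inducible genes ranged from the floor to the top decile. Of 26 constitutive folding genes 23 were in the top decile (median 9.28): the calcium-binding ER chaperone gene crt-1 at 11.57, the HSP70 gene hsp-1 at 11.30, the disulfide isomerase gene pdi-6 at 10.76 and hsp-90 at 10.62. The chaperonin CCT is a ring of 8 different subunits, and its genes did not read alike. Of the 8, 6 were in the top decile, while cct-8, picked out after its value was seen, stood at 4.24 and cct-3 at 3.19, each from a single probe set. Of 9 heat-inducible genes 3 had a probe set of their own: hsp-16.2 stood at 3.03, hsp-70 at 2.95 and hsp-16.41 at 2.91, all near the floor. Probe sets that read pairs of such genes were higher, at 4.93 for hsp-16.1 with hsp-16.11, 6.71 for hsp-16.48 with hsp-16.49, and 7.42 and 7.23, both at top-decile levels, for F44E5.4 with F44E5.5. Antioxidant enzymes were mixed, with 8 of 18 in the top decile (peroxiredoxin prdx-2 at 9.84, gst-1 at 8.62) and 5 near the floor (the superoxide dismutase genes sod-3 at 2.71 and sod-5 at 2.56).

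Of the tissues, body wall muscle, the intestine and the epidermis gave the brightest marker genes. Muscle genes had 24 of 29 measured members in the top decile and a median of 9.11, against 3.13 for all genes. The myosin light chain gene mlc-2 stood at 12.02, the actin genes act-4 and act-3 at 11.86 and 11.84, and the troponin C gene pat-10 at 11.69; the lowest was hlh-1, a transcription factor of muscle fate, at 3.63. Intestinal genes had 18 of 25 in the top decile (median 8.21). The proteases asp-1 and asp-3 stood at 11.87 and 10.60, the brush border actin act-5 at 9.98 and the lysozyme lys-1 at 9.97, whereas the ferritin gene ftn-1 was at 2.35. In a whole-animal sample more cells of a type and more RNA per cell cannot be told apart.

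In the epidermal list 12 of 25 genes were in the top decile, led by dpy-13, sqt-3, dpy-4 and dpy-5 (11.34), and dpy-14 and ifa-3 were the lowest at 2.94 and 2.75. A group picked out after the values were seen comprised the furrow collagens, which are needed for the circular grooves of the cuticle. Its 5 measured members, dpy-2, dpy-3, dpy-7, dpy-8 and dpy-9, lay between 5.52 and 7.24 (median 6.51), with 1 in the top decile. The 11 other body-shape collagens ran from 2.94 to 13.05 (median 9.68), with 8 in the top decile and 2 near the floor, so the ranges overlap. The larger col family was split: 39 of 128 genes (30.5%) were in the top decile, 20 of them at 10 or above, and 65 (50.8%) were near the floor, with col-163 at 2.23 and col-127 the lowest. Hedgehog-related genes, secreted proteins of the epidermis and its cuticle, had 9 of 54 in the top decile (grd-14 at 10.23, grd-5 at 9.56) and 35 near the floor. Those 35 were 64.8% of the family, close to the 61.7% of all genes.

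The pharynx, the worm's muscular feeding organ, had 11 of 22 genes in the top decile (median 6.76). All 7 measured abu genes, low-complexity proteins of the pharyngeal lining, were among them, with abu-14 at 10.08 and abu-8 at 9.83. Of 6 phat genes, made in pharyngeal glands, 4 (66.7%) were near the floor, close to the 61.7% of all genes, down to phat-1 at 2.53. Among 8 measured seam cell genes grd-10 (8.72) and grd-3 (7.67) were in the top decile, while the transcription factor genes lin-22 and ceh-16 stood at 2.50 and 2.46.

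Genes of the nervous system ranged widely. Pan-neuronal genes had 6 of 24 members in the top decile and 10 (41.7%) near the floor, 5 of these at or below the highest Bacillus control (median 5.44). The ankyrin gene unc-44 stood at 8.22, the synaptobrevin gene snb-1 at 8.19, and the neuropeptide-processing genes egl-3 and sbt-1 at 7.95 and 7.76. The 9 probe sets of unc-44 ran down to 2.40. The lowest genes were unc-31 (2.27) and maco-1 (2.24). Of 17 genes that define transmitter classes 13 (76.5%) were near the floor, and the highest was bas-1, an amino acid decarboxylase gene, at 6.19. Of 10 genes known from touch receptor neurons 7 (70%) were near the floor, against 61.7% of all genes (median 3.06). The tubulin gene mec-7 stood at 6.94 and mec-17, a tubulin acetyltransferase gene, at 6.65, while the channel gene mec-4 was at 2.22. All 23 genes of ciliated sensory neurons were near the floor, with daf-7 highest at 3.45. FMRFamide-like neuropeptide genes lay in the middle, 18 of 25 above the floor and none in the top decile (flp-1 at 6.79). Near the floor were 5 of 8 glial genes (62.5%), close to the 61.7% of all genes, and 10 of 14 of the excretory system (71.4%). Of 6 coelomocyte genes 5 (83.3%) were near the floor, the other being lmp-1 (8.44), a lysosomal membrane protein gene not limited to those cells.

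**Figure D3:**
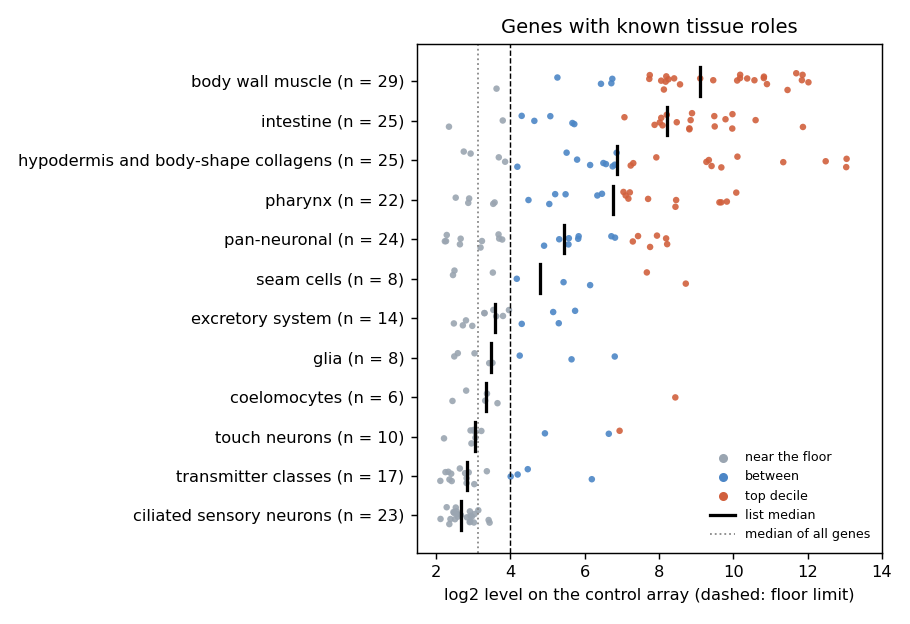
Log2 levels on the control array (x axis) of genes with known tissue roles, 1 point per gene, coloured by class, with a black bar at each list's median. Muscle (median 9.11) and intestine (8.21) lie highest, and all 23 genes of ciliated sensory neurons lie left of the dashed floor limit.

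Large families of receptors and regulators were almost wholly near the floor. Of 1275 chemoreceptor genes, seven-pass receptors that are each made in few sensory neurons, 1273 (99.8%) were near the floor and 99.3% were at or below the highest Bacillus control. Only srr-4 at 6.65 and srv-1 at 5.21 were above the floor limit. Of 310 F-box genes 298 (96.1%) were near the floor, of 85 MATH and BATH adaptor genes 74 (87.1%), of 60 ceh homeobox genes 54, of 254 nuclear hormone receptor genes 217 (85.4%), and of 220 C-type lectin genes 189 (85.9%). The nuclear receptor gene nhr-49, a regulator of fat use, stood at 7.69, and 3 lectin genes stood at 9 or above, clec-63 at 10.02, clec-50 at 9.52 and clec-265 at 9.02. Guanylyl cyclases had 31 of 32 genes near the floor, the exception being gcy-28 at 7.97 with a dimmest probe set of 2.18. Potassium leak channels had 37 of 42 (twk-18 highest at 7.12), ligand-gated channels 57 of 65 (lgc-21 at 8.03), insulin-like peptides 20 of 24 (ins-35 the highest), cytochromes P450 61 of 73 (cyp-35C1 at 6.10) and pals genes, a family known for its response to intracellular pathogens, 21 of 23 (pals-23 and pals-22 both at 4.51). All of these shares are above the 61.7% of all genes.

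Secreted and digestive families differed in their shares of bright genes. Over all genes 10% were in the top decile and 61.7% near the floor. Of 15 aspartyl protease genes 8 were in the top decile and 6 near the floor, and of 8 cathepsin B-like genes 6 were in the top decile (cpr-1 at 9.79) and 1 near the floor. Lysozymes ran from ilys-5 at 11.05, with its 3 probe sets all at 10.99 or above, to 9 of 16 near the floor. Transthyretin-related genes had 14 of 40 in the top decile (ttr-16 at 11.72, ttr-15 at 10.48) and 15 near the floor. Lipid-binding proteins had 8 of 17 in the top decile and 2 near the floor, led by far-1 at 12.12 and far-2 at 11.76, carriers of fatty acids and retinol. In the top decile were 4 of 18 saposin-like genes (spp-10 at 9.36), 5 of 64 UDP-glucuronosyltransferases (ugt-46 at 8.11), 8 of 40 glutathione S-transferases (gst-27 at 8.63) and 10 of 58 neuropeptide-like genes (nlp-33, an epidermal defence peptide gene, at 9.27). Patched-related genes had 3 of 26 (ptr-23 at 9.41) and astacin proteases none of 33 (nas-11 highest at 6.79). Histone genes had 8 of 35, the variant H3 gene his-72 first at 8.56. Tubulins and actins had 9 of 18, with tbb-2 at 10.68 and tba-6 lowest at 2.37.

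**Figure D4:**
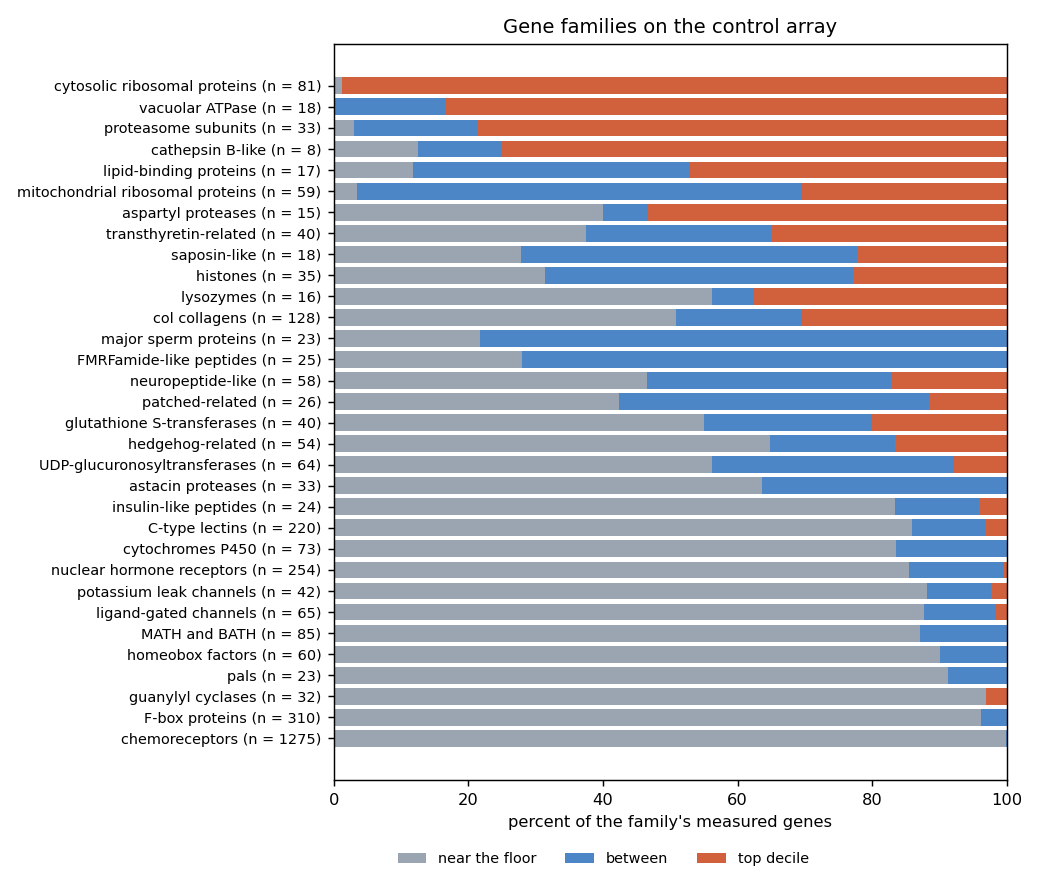
Share of each family's measured genes (x axis, percent) that were near the floor (grey), between (blue) and in the top decile (orange) on the control array. Cytosolic ribosomal proteins are orange for 80 of 81 genes and chemoreceptors grey for 1273 of 1275.

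The measured yolk and adult cuticle genes were near the floor, as were 61.7% of all genes. All 5 measured vitellogenin genes, which make yolk in the intestine of the adult hermaphrodite, lay between 2.47 (vit-5) and 3.51 (vit-1). The adult cuticle collagens col-19, bli-1 and bli-2 stood at 3.25, 3.09 and 3.03, and the dauer collagens col-2 and col-40 at 3.77 and 2.59. Genes of the male tail and male sensory neurons were also low, with dmd-3 at 2.41, lov-1 at 2.46 and pkd-2 at 2.61. In the sex determination list fem-1 (6.77) and tra-1 (6.02), which act in both sexes, were above the floor, and 7 of 11 (63.6%) were near it, about the share of all genes. The 4 probe sets of tra-1 ran down to 2.29, and the dimmest of fem-1 stood at 5.91. All 6 measured genes of the early embryo's own transcription, such as end-1 (2.80), end-3 (2.50), med-1 (2.52) and pes-10 (2.39), were near the floor.

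Maternal and eggshell genes lay on both sides of the floor limit. Of 26 embryo and maternal genes 18 were near the floor (69.2%), close to the 61.7% of all genes. Those above were skn-1 at 7.40, which also acts in the larval intestine, the eggshell genes cbd-1 (6.25), cpg-1 (4.97) and cpg-2 (4.75), the chitin synthase gene chs-1 (4.02), and the RNA-binding protein genes mex-5 (5.76), mex-3 (5.63) and pos-1 (4.24). The dimmest probe set was near the floor for mex-3 (3.85), cpg-2 (3.82), mex-5 (3.48), cpg-1 (3.10) and pos-1 (2.54). It was above the floor for cbd-1 (5.18) and skn-1 (4.46), and chs-1 has 1 probe set. With the dimmest probe set of each gene, 23 of the 26 were near the floor, against 66.8% of all genes. The oocyte genes oma-1 (2.94), puf-5 (2.85) and pie-1 (2.77) were near the floor.

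Germ cell and meiosis genes were above the floor in most cases. Of 40 germline genes 29 were above the floor, against 38.3% of all genes, with a median of 4.81. In the top decile were 4 (10%), the same share as of all genes. The P granule helicase gene glh-1 stood at 9.10 (second probe set 7.69), daz-1 at 7.50, nos-3 at 7.26 and gld-2 at 7.03. The 5 probe sets of gld-2 ran down to 2.18. The translational repressor gene gld-1 stood at 6.73, although its second probe set was at 2.27. Of 17 genes of meiotic chromosome structure and recombination 10 were above the floor and 5 at a level of 5 or above, against 38.3% and 26.7% of all genes. Among the 10 were the axis gene him-3 at 6.36 (second probe set 5.85), the recombinase gene rad-51 at 5.35, the cohesin gene rec-8 at 5.15 and the synaptonemal genes syp-1 (5.12) and syp-2 (4.70). The break enzyme gene spo-11 (2.97) and the crossover gene cosa-1 (2.88) were near it. The small RNA genes prg-1, wago-1 and csr-1 stood at 6.57, 5.79 and 5.08.

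Sperm genes gave readings that depend on the probe sets. Of 36 measured members 20 were above the floor, against 38.3% of all genes. Of these 20, 18 were major sperm protein genes, led by msp-55 (6.48) and msp-78 (6.43). The other 2 were fog-1 (4.98) and fog-3 (4.36), which direct germ cells to the sperm fate. The 14 members outside the msp genes had a median of 2.45, with the sperm phosphatase genes gsp-3 and gsp-4 at 2.35 and 2.41 and fer-1 at 2.09. Of 32 probe sets that read msp genes, alone or together, 31 have names that mark them as shared between transcripts, with levels up to 6.69, and the 1 other stood at 2.19. Whether the msp signal came from related transcripts was not tested.

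Larval timing genes included both early and late ones. The heterochronic genes set the order of larval stages, and 13 of the 17 measured were above the floor (median 6.09), against 38.3% of all genes. The brightest was lep-5 (10.59, 1 probe set), whose RNA acts with LEP-2 to lower LIN-28. The gene of that partner, lep-2, stood at 2.82. The gene lin-14, whose protein is most abundant in first-stage larvae, stood at 2.37 from a single probe set that may be shared between transcripts, and lin-28 at 4.41. The later-acting lin-29 stood at 6.09 and lin-41 at 4.45, and hbl-1, daf-12, blmp-1 and the clock gene lin-42 at 5.79, 6.73, 6.92 and 6.38. Of these, lin-14 and lin-29 have 1 probe set, and in the others the dimmest probe set was near the floor, at 2.45 for both lin-28 and lin-41, 2.59 for hbl-1, 2.34 for daf-12, 3.07 for blmp-1 and 2.26 for lin-42. Beside lep-2 and lin-14, the timing genes lin-46 (3.89) and mab-10 (2.49) were near the floor. Of 17 vulva and anchor cell genes 11 (64.7%) were near the floor, about the share of all genes, and 6 above it, none over bar-1 and fos-1 (both 5.42), and egl-17 (2.56), lag-2 (2.82) and zmp-1 (2.47) were near it.

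**Figure D5:**
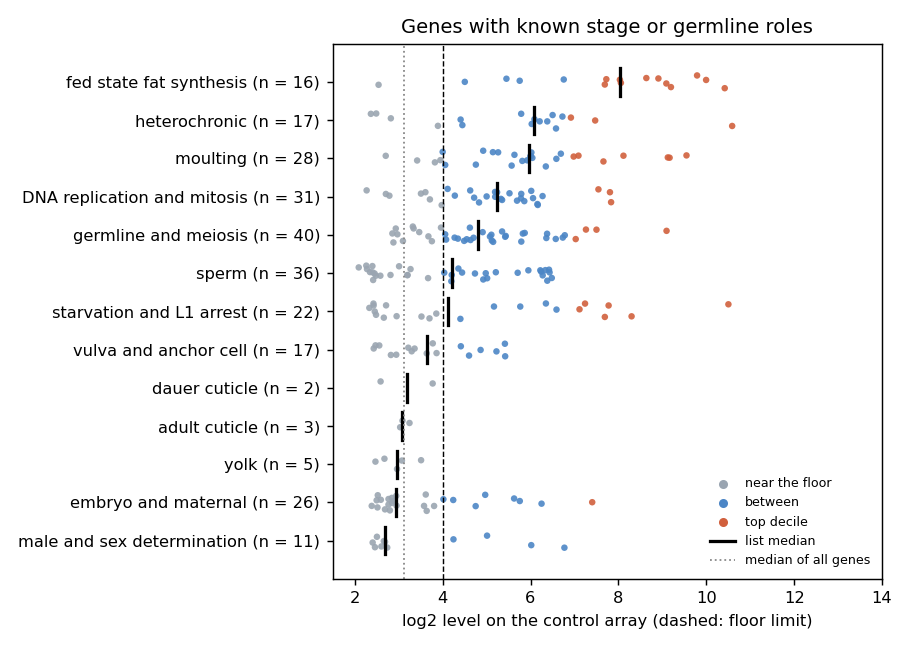
Log2 levels on the control array (x axis) of genes with known stage, germline, cell cycle or feeding roles, 1 point per gene, coloured by class, with a black bar at each list's median. Fat synthesis genes lie highest (median 8.05), germline genes spread on both sides of the dashed floor limit (median 4.81), and all 5 yolk genes lie left of it.

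Moulting and cell division genes were above the floor in most cases, against 38.3% of all genes. Of 28 moulting genes 24 were above it and 7 in the top decile (median 5.96): the cuticle component genes noah-1 (9.55) and noah-2 (7.09), mlt-8 (9.17), the amyloid precursor-related gene apl-1 (9.12), the megalin-like receptor gene lrp-1 (8.12), mlt-11 (7.66) and the peroxidase gene mlt-7 (6.98). The moulting regulator nhr-23 stood at 5.81, mlt-10 at 5.63, and the moulting proteases nas-36 and nas-37 at 3.95 and 3.82. The dimmest probe set was near the floor for mlt-11 (2.24), mlt-7 (3.57) and nhr-23 (2.48). Of 31 replication and mitosis genes 24 were above the floor (median 5.24), with the kinase gene plk-1 at 7.83, cyclin B genes cyb-3 at 7.81 and cyb-1 at 5.69, and the helicase subunit mcm-7 at 7.55. The cell cycle inhibitor cki-1 stood at 6.02, and cdk-2 (2.27) and cye-1 (2.71) were the lowest.

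Genes of fat synthesis in fed worms were bright. Of 16 genes 11 were in the top decile (median 8.05): the elongases elo-5 (10.42), elo-6 (9.996) and elo-1 (9.79) lengthen fatty acids, the desaturases fat-2 (9.09), fat-1 (8.91) and fat-6 (8.64) add double bonds, and acdh-1, an enzyme gene of propionate breakdown, stood at 9.20. The desaturase genes fat-7 and fat-5 stood at 4.50 and 2.54. Of 22 genes known to be raised by fasting or to act in arrest, 11 (50%) were near the floor, against 61.7% of all genes. The fasting-induced lipase genes fil-1 (2.46), fil-2 (2.48), lipl-3 (2.43) and lipl-4 (2.43) and the carnitine transferase gene cpt-3 (2.33) were near the floor, and acs-2 stood at 3.86. In the top decile were the metallothionein gene mtl-2 (10.50), the glyoxylate cycle gene icl-1 (8.30), lea-1 (7.78, with probe sets down to 2.47), nhr-49, lipl-5 (7.24) and the kinase gene aak-2 (7.12).

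Set beside the L1 label, the markers gave mixed readings. All 5 measured yolk genes and all 3 measured adult cuticle genes were near the floor, as were 61.7% of all genes. The male genes dmd-3, lov-1 and pkd-2 were near it too, in a list with 7 of 11 (63.6%) there, about the share of all genes. Of 40 germ cell genes 11 (27.5%) were near the floor, against 61.7% of all genes. With the floor limit at 5, 21 of the 40 would be near it, against 73.3% of all genes. The sperm fate genes fog-1 (4.98) and fog-3 (4.36) would then be near it too. The meiotic axis gene him-3 stood at 6.36, and the timing genes lin-14, lin-29 and mab-10, with 1 probe set each, at 2.37, 6.09 and 2.49. The labels give no hours between hatching and collection, and the ages of the animals in the sample were not tested. The sample is called untreated larvae here, and L1 is the submitters' label.

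Position in the genome added a further description (WBcel235 annotation). Of the nuclear chromosomes, III had the largest share of its measured genes in the top decile, 304 of 2256 (13.5%), and V the smallest, 316 of 4321 (7.31%), with 73.1% of its genes near the floor. Of the chemoreceptor genes 884 (69.3%) and of the nuclear hormone receptor genes 164 (64.6%) lie on V. Without those and the C-type lectin, F-box, and MATH and BATH genes, 10.1% of the genes left on V were in the top decile, against 11.4% over all chromosomes, and 63.5% were near the floor, against 56.8%. On the X chromosome 9.66% were in the top decile and 62.4% near the floor. Genes of the top decile and of the floor had similar spans, with median lengths from first to last annotated base, introns included, of 1911 and 2005 bases, whereas genes between them had a median of 2813. Genes with a gene-class name were in the top decile in 13.3% of 10388 cases, and genes known mostly by sequence names in 4.93% of 6730.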

How the data were processed

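The larval RNA was hybridized to an Affymetrix worm array, per the labels' protocols. The deposited log2 levels were made by the authors with GCRMA, which the submitters' processing notes name without a version; the log2 scale was read from their range. GCRMA adjusts for probe-sequence background and is usually run on all arrays at once, so the treated arrays can enter these levels.

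Gene symbols came from the platform annotation, which gave 1 symbol to 20766 probe sets, several to 887 and none to 972, of which 77 are Affymetrix controls. Of the first group 20701 matched the RefSeq gene table. The IDs of 6732 probe sets mark possible sharing between transcripts. Each gene took its brightest single-symbol probe set, and genes were ranked without a test.

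The genes described, 33 lists and 32 name-based families were chosen with earlier results of these data known, and the ribosomal family was widened to current symbols, and a collagen family that also held other genes dropped, after the data were seen. Of 673 list entries 53 had no single-symbol probe set. Named were the 30 brightest genes, stage list members, and up to 4 highest and 2 lowest members elsewhere, except where a later choice is stated. The ranking steps were tested on simulated data. Tools were Python 3.11.15, numpy 2.4.6, pandas 2.3.3, scipy 1.17.1 and matplotlib 3.10.9.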

Additional observations from a re-analysis of the deposited data

How the results depend on the processing

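Over 14 counts or shares and 82 alternatives, 56 values stayed within 1.5 times the reported one (for the share of genes near the floor, within its binomial interval), and 26 did not. For the gene lists the counts were compared, so some of the 26 are lists that lost genes while their share changed little. The share of genes near the floor, 61.7%, was 63.5% with the mean of a gene's probe sets, 66.8% with the dimmest, 69.2% without probe sets marked as shared (13618 genes left), 47.2% with the floor at log2 level 3 and 73.3% with it at 5. Leaving out shared probe sets removes genes from these lists: 0.764% of the genes left were then at 10 or above, against 1.37%, and the top decile held 36 of 38 ribosomal protein, 19 of 80 col, 18 of 19 oxidative phosphorylation, 15 of 17 muscle and 9 of 13 intestine genes, while near the floor were 3 of 3 yolk, 7 of 9 sperm and 2 of 19 moulting genes. With level 10 in place of the top decile, counts were 20 for col, 12 for oxidative phosphorylation, 13 for muscle, 2 for intestine and 0 for pan-neuronal genes. With the dimmest probe set, 3 pan-neuronal genes were in the top decile and 9 moulting genes near the floor. A floor at 3 left near it 3 yolk, 4 germline and 1 moulting gene, and a floor at 5 put 21 germline and 8 moulting genes there. No paired analysis was possible because the series has 1 array per group. Probe binding, and for distant probe sets the 5′ loss, limit what a low level says.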
